A study of Mus musculus with 6 samples.

Results

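The mRNAs of 10 genes that build and remodel the actin cytoskeleton were measured among RNA recovered with YTHDF2 from tumour-infiltrating regulatory T (Treg) cells. They were chosen by Ensembl gene identifier: Actb, Actg1, Tmsb4x, Tmsb10, Pfn1, Cfl1, Coro1a, Arpc1b, Arpc2 and Arpc3. All 10 were listed among the 54446 gene identifiers of the count files, and all 10 were among the 15615 genes tested. Their names come with the choice of identifiers, since the files give identifiers without symbols.

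The series used RNA immunoprecipitation sequencing (RIP-seq), in which an antibody captures a protein from a cell lysate and the RNA held by it is sequenced. B16F10 mouse melanoma cells were grown under the skin of the flank, and live CD45+ CD4+ GFP+ cells were sorted out of them; the host mice were wild type (WT), and in them green fluorescent protein reports Foxp3. Of the 6 libraries, 3 came from RNA bound to beads with an anti-YTHDF2 antibody (YTHDF2 IP) and 3 from a part of the lysate set aside beforehand (Input). Both groups share genotype, tumour and gate and differ in the precipitation alone, per the labels. Mouse strain, age and sex, and whether a library is 1 animal or a pool, are not stated in the labels. The p-values below therefore cover library-to-library spread only, and that spread may be technical. A precipitation with a control antibody, or from cells without YTHDF2, was not analysed here. Depletion means a lower abundance in the YTHDF2 IP than in the Input relative to library sizes of gene-assigned reads scaled by TMM (trimmed mean of M-values) factors. An Input value is that of a bulk lysate, where the number of cells of a type and their RNA per cell cannot be told apart. Depletion sets the IP against that lysate, and no change in expression between cells was measured. The Treg label was not checked against marker genes, which could not be named from these files.

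Actin is a globular protein that assembles into filaments and is released from them again. Beta-thymosins and profilin bind the monomers, cofilin severs old filaments, and the Arp2/3 complex starts new branches on existing ones, with coronin acting on both. T cells use this cycle to crawl through tissue and to form the contact zone with another cell. YTHDF2 is a cytoplasmic reader of N6-methyladenosine in mRNA that speeds the decay of the transcripts it binds.

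All 10 mRNAs were depleted from the YTHDF2 IP. Their log2 fold changes (IP over Input) lay between -4.15 for Actb and -1.07 for Arpc1b, with a median of -2.98, against a median of -0.12 over all tested genes. An adjusted p under 0.05 with a negative log2 fold change was found for 10 of the 10 in edgeR's quasi-likelihood test and for 6.11% of all tested genes. None of the 10 was enriched, against 4.33% of all tested genes. Abundant mRNAs pass this test more often, and the lowest mean over the 6 libraries among the 10 was 146 CPM (counts per 1000000 gene-assigned reads, with TMM scaling), that of Arpc3. Among the 1450 tested genes at or above that mean, 21% were depleted and 25.3% enriched, and the median log2 fold change was 0.24. The 10 mRNAs are among these 1450 genes. They were chosen with earlier results of these data known, so the counts describe these 10 and are no independent test of actin mRNAs.

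Every YTHDF2 IP library lay below every Input library for each of the 10 mRNAs. This held for 23.7% of all tested genes and for 404 of the 1450 at or above the mean of Arpc3. Together the 10 mRNAs took 0.138%, 0.163% and 0.162% of gene-assigned reads in YTHDF2 IP replicates 1, 2 and 3, against 1.33%, 1.43% and 1.57% in Input replicates 1, 2 and 3. On average this made 0.154% ± 0.0142 of IP reads and 1.45% ± 0.119 of Input reads (SD, n = 3 each), a ratio of 0.107. With all reads of a file as the denominator the ratio was 0.0680, because a smaller share of IP reads was assigned to genes. Without the 16 most abundant gene identifiers of both groups, of which Actb is 1, the other 9 mRNAs gave a ratio of 0.171.

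**Figure D1:**
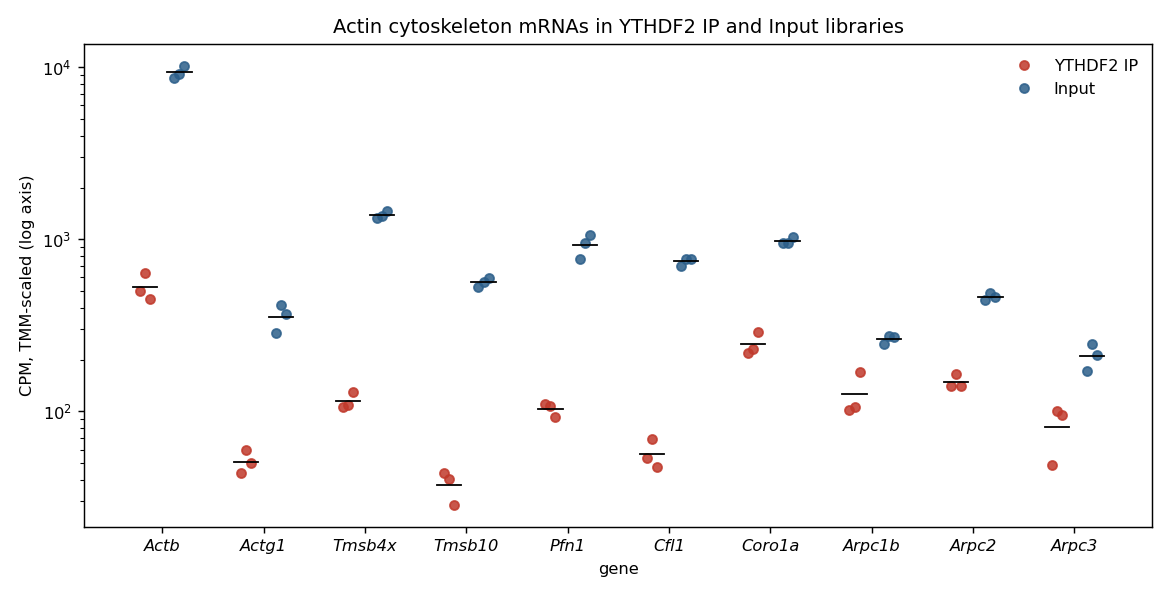
CPM with TMM scaling (log axis) for each of the 10 mRNAs, with the 3 YTHDF2 IP libraries as red points on the left of each gene, the 3 Input libraries as blue points on the right, and a black line at each group mean. No red point reaches a blue point of the same gene, and the gap is widest for Actb and narrowest for Arpc1b.

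The library measures that bear on these values differed between the groups. Gene-assigned reads numbered 6847731 to 8465453 per YTHDF2 IP library and 10029733 to 14704617 per Input library. Reads that the counting assigned to no feature made up 71.2% to 72.1% of an IP file and 49.6% to 51.6% of an Input file. Where these reads lie in the genome was not examined. A read was found for 14200 to 19991 gene identifiers per IP library, fewest in replicate 3, against 26250 to 33344 per Input library. Reads with more than 1 alignment made up 2.88% to 3.35% of an IP file and 9.18% to 9.65% of an Input file. Reads that overlapped several genes made up 0.396% to 0.418% and 1.21% to 1.25%. Actins and other abundant housekeeping genes have processed copies in the mouse genome. Reads that align equally well to a copy are counted as having more than 1 alignment and not for the gene, so counts of the 10 mRNAs are uncertain to that extent. In the RefSeq gene table of build GRCm38.p6, 4 of the 10 genes overlap another gene: Actb, Actg1, Pfn1 and Arpc3. Whether the counting used strand is not stated, and the part of these library differences in the result was not tested.

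The actins form the filament itself. Actb (ENSMUSG00000029580.14) encodes beta-actin and lies at chr5:142903115-142907976 of GRCm38. It had 498, 635 and 448 CPM in YTHDF2 IP replicates 1, 2 and 3, against 8718, 9130 and 10180 CPM in Input replicates 1, 2 and 3. The lowest Input library was 13.7 times the highest IP library. This is a log2 fold change of -4.15 ± 0.16 (SE; edgeR adjusted p = 1.62e-06), or 17.7-fold lower in the IP. Only 20 of the 1450 genes at or above the level of Arpc3 had a lower log2 fold change. Actb was counted from 3771 to 4373 reads in an IP library and from 86525 to 120936 in an Input library, so counting error is small beside the spread between libraries.

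Actg1 (ENSMUSG00000062825.15) encodes gamma-actin, the other cytoplasmic actin, at chr11:120345687-120348495. It had 43.8, 59.4 and 50.1 CPM in the IP libraries, against 284, 416 and 367 CPM in the Input libraries. The groups stood apart by 4.78-fold at their nearest values. edgeR put the log2 fold change at -2.80 ± 0.22 (SE; adjusted p = 6.50e-05). The 2 actin mRNAs did not follow each other exactly. There were 0.0880, 0.0935 and 0.112 Actg1 reads per Actb read in the IP libraries, against 0.0326, 0.0455 and 0.0360 in the Input libraries. This ratio is taken within a library and does not depend on scaling. It was 2.58-fold higher in the IP, with no overlap between the groups, and an exact permutation test (two-sided) returned p = 0.1, the smallest that 3 against 3 libraries allow. Adjusted over the 6 pairs of mRNAs compared in this way, p was 0.20.

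The monomer-binding proteins hold actin subunits in reserve. Tmsb4x (ENSMUSG00000049775.16), at chrX:167207093-167213479, encodes thymosin beta-4, which sequesters monomers. It had 106, 109 and 130 CPM in the IP libraries, against 1327, 1371 and 1460 CPM in the Input libraries. The IP libraries were close to each other and all far below the Input. Between the groups, edgeR gave a log2 fold change of -3.59 ± 0.15 (SE; adjusted p = 1.62e-06). Tmsb10 (ENSMUSG00000079523.8), at chr6:72957347-72958748, encodes the related thymosin beta-10. It had 43.7, 40.2 and 28.6 CPM in the IP libraries, against 530, 568 and 598 CPM in the Input libraries. The third IP library was the lowest. Depletion amounted to 15.1-fold, a log2 fold change of -3.91 ± 0.21 (SE; edgeR adjusted p = 7.89e-06).

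The thymosin pair kept a nearly constant ratio in the Input, with 0.400, 0.414 and 0.409 Tmsb10 reads per Tmsb4x read. In the IP libraries it was 0.410, 0.368 and 0.221. The groups overlapped because IP replicate 1 lay between the Input libraries, and only the third IP library stood well below them. An exact permutation test (two-sided) returned p = 0.3, and 0.45 adjusted over the 6 pairs. The smallest p this test allows is 0.1, so it could not decide whether depletion differs between these mRNAs.

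Pfn1 (ENSMUSG00000018293.4) encodes profilin 1, which loads monomers with ATP and delivers them to growing ends. It lies at chr11:70651844-70656799, where it overlaps Eno3. It had 110, 108 and 93.2 CPM in the IP libraries, against 767, 950 and 1055 CPM in the Input libraries. The IP libraries varied little, with a coefficient of variation of 8.77%, against 15.8% in the Input. Depletion of Pfn1 had a log2 fold change of -3.16 ± 0.17 (SE; edgeR adjusted p = 8.35e-06).

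Filament turnover was represented by cofilin 1 and coronin 1A. Cfl1 (ENSMUSG00000056201.7), at chr19:5490455-5494031, encodes cofilin 1, which severs and disassembles filaments. It had 53.5, 69.4 and 47.7 CPM in the IP libraries, against 699, 770 and 772 CPM in the Input libraries. Its nearest values were 10.1-fold apart. In edgeR's test this was a log2 fold change of -3.72 ± 0.19 (SE; adjusted p = 6.69e-06). Cfl1 reads per Pfn1 read were 0.486, 0.645 and 0.512 in the IP libraries, against 0.911, 0.810 and 0.732 in the Input libraries. The ratio was lower in every IP library, at 0.667 times that of the Input. By exact two-sided permutation p was 0.1, and 0.20 adjusted over the 6 pairs.

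Coro1a (ENSMUSG00000030707.15), at chr7:126699774-126704816, encodes coronin 1A, the coronin of blood cells, which binds filaments and the Arp2/3 complex. It had 219, 229 and 289 CPM in the IP libraries, against 949, 958 and 1035 CPM in the Input libraries. Coro1a was thus 3.99-fold lower in the IP, with a log2 fold change of -2.00 ± 0.15 (SE; edgeR adjusted p = 6.30e-05). In both groups the third library was the highest.

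The Arp2/3 subunits were the least depleted of the 10. Arpc2 (ENSMUSG00000006304.14), at chr1:74236490-74268209, encodes a subunit of the structural core that contacts the mother filament. It had 140, 164 and 140 CPM in the IP libraries, against 443, 485 and 464 CPM in the Input libraries. Replicates were close in both groups, and edgeR found a log2 fold change of -1.65 ± 0.15 (SE; adjusted p = 0.000173). Arpc3 (ENSMUSG00000029465.14), at chr5:122391878-122406181, encodes a smaller subunit of the complex. It had 48.7, 100.03 and 94.8 CPM in the IP libraries, against 172, 247 and 214 CPM in the Input libraries. The first IP library lay well below the other IP libraries, a range of 2.05-fold. Arpc3 still passed edgeR's test, at a log2 fold change of -1.38 ± 0.29 (SE; adjusted p = 0.0161).

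Arpc1b (ENSMUSG00000029622.16), at chr5:145114256-145128186, encodes the p41 subunit, the form of this subunit that prevails in blood cells. It had 102, 106 and 169 CPM in the IP libraries, against 248, 273 and 271 CPM in the Input libraries. The third IP library was 1.66 times the lowest IP library and came within 1.47-fold of the lowest Input library. Of the 10 it had the log2 fold change nearest 0, -1.07 ± 0.22 (SE; edgeR adjusted p = 0.0147). Without YTHDF2 IP replicate 1 or 2, which gives the third library more weight, edgeR's adjusted p was 0.0531 or 0.0521 and the call was lost. The log2 fold change was then -0.988 or -1.004. Over 16 alternatives the adjusted p ranged from 2.65e-05 to 0.0531, and it was higher only in the test against a 1.5-fold change. Without IP replicate 3 the log2 fold change of Arpc1b was -1.38 (edgeR adjusted p = 0.000617). In edgeR's test against a 1.5-fold change, 8 of the 10 mRNAs were called depleted, against 3.78% of all tested genes. The exceptions were Arpc1b, with an adjusted p of 0.0993, and Arpc3, with an adjusted p of 0.0670.

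Within the complex, 1 of the 3 ratios between subunits separated the groups. Arpc2 reads per Arpc1b read were 1.37, 1.55 and 0.828 in the IP libraries, against 1.79, 1.78 and 1.71 in the Input libraries. The groups did not overlap, with p = 0.1 in the exact two-sided permutation test and 0.20 adjusted over the 6 pairs. That p of 0.1 is the smallest this test allows, and no share over other gene pairs was computed. The log2 ratio changed by -0.54 (IP minus Input), and by -0.27 without IP replicate 3, the lowest IP library. Arpc3 reads per Arpc1b read and per Arpc2 read overlapped between the groups, with exact permutation p-values of 0.4 and 0.5 (0.48 and 0.50 adjusted).

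**Figure D2:**
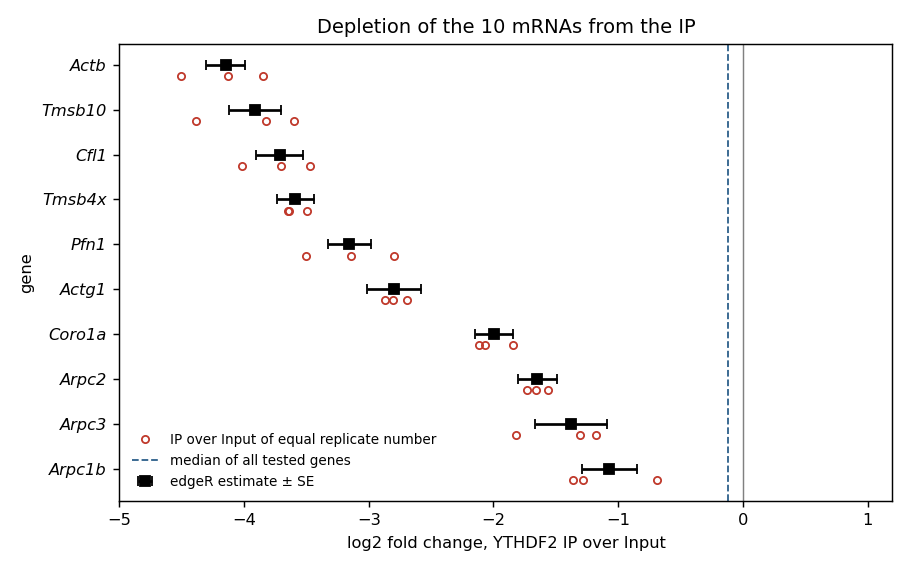
log2 fold change of YTHDF2 IP over Input for each mRNA, as the edgeR estimate with its SE (black squares) and as the ratios of IP and Input libraries of equal replicate number (open red circles), with the median of all tested genes as a dashed line. All values lie left of that line, with Actb at -4.15 at one end and Arpc1b at -1.07 at the other.

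Ordered by log2 fold change from the lowest, the mRNAs ran Actb, Tmsb10, Cfl1, Tmsb4x, Pfn1, Actg1, Coro1a, Arpc2, Arpc3 and Arpc1b. For 2 of the 9 neighbouring pairs, the within-library ratio did not overlap between IP and Input: Actb against Tmsb10, and Actg1 against Coro1a. The ratio of Actg1 to Coro1a changed by -0.78 on the log2 scale (IP minus Input), the largest step in the order. The ratios of the other 7 neighbours overlapped between the groups. The order was taken from these same libraries, which presets the direction of these changes, and no share over other gene pairs was computed. The 6 mRNAs before that step encode the actins, the monomer-binding proteins and cofilin, and had log2 fold changes of -2.80 or lower. The 4 after it encode coronin 1A and the Arp2/3 subunits, with -2.00 or higher. This grouping was seen in the values and carries no test.

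The different depths of depletion changed the make-up of the reads of the 10 mRNAs. Actb gave 36.5%, 39.2% and 30.1% of them in the IP libraries, against 61.7%, 60.2% and 62.0% in the Input libraries. The 3 Arp2/3 subunits together gave 23.7% ± 2.98 in the IP and 6.17% ± 0.425 in the Input (SD, n = 3 each). Coro1a gave 16.5% ± 2.67 in the IP and 6.44% ± 0.233 in the Input. The beta-thymosins and profilin together gave 17.3% ± 1.64 in the IP and 18.9% ± 0.262 in the Input. These are shares of reads, which also depend on transcript length, and no lengths were used here.

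**Figure D3:**
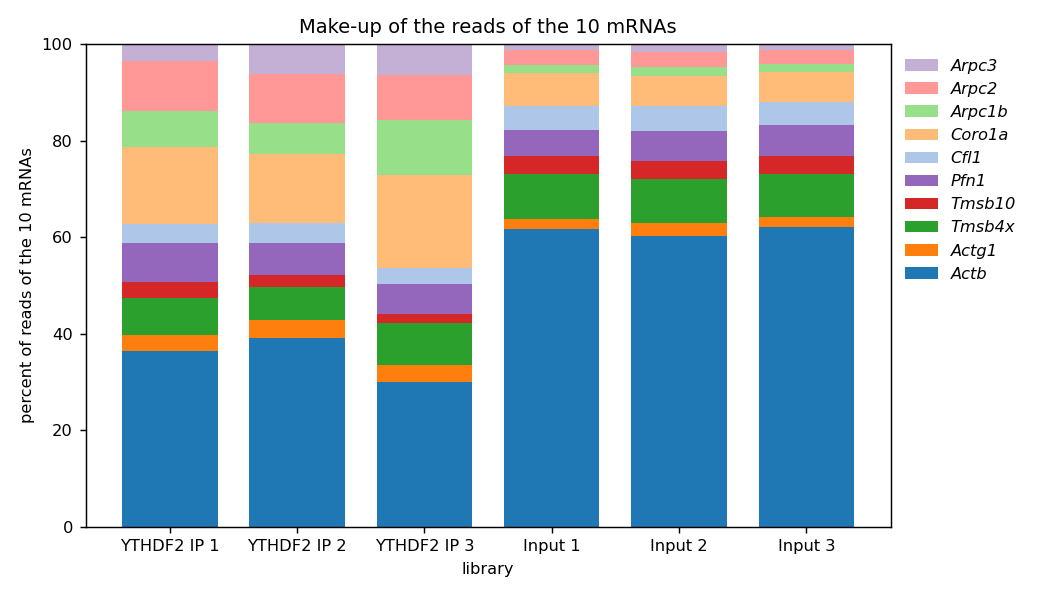
Percent of the reads of the 10 mRNAs that belong to each of them, stacked per library, with the 3 YTHDF2 IP libraries on the left and the 3 Input libraries on the right. The blue Actb segment at the bottom spans 30.1% to 39.2% in the IP and 60.2% to 62.0% in the Input, and the segments of Coro1a and the Arp2/3 subunits at the top are taller in every IP library.

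Among the 1450 tested genes at or above the mean of Arpc3, the 10 mRNAs lay in the lower part of the distribution. That mean is a floor, so the genes are not matched to the level of each mRNA. Of the 1450, between 1.38% (for Actb) and 15.6% (for Arpc1b) had a lower log2 fold change than the mRNA in question. Among the 10, the coefficient of variation between replicates had a median of 16.9% in the IP libraries and 5.79% in the Input libraries. The same medians over the 1450 genes were 18.1% and 9.84%.

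**Figure D4:**
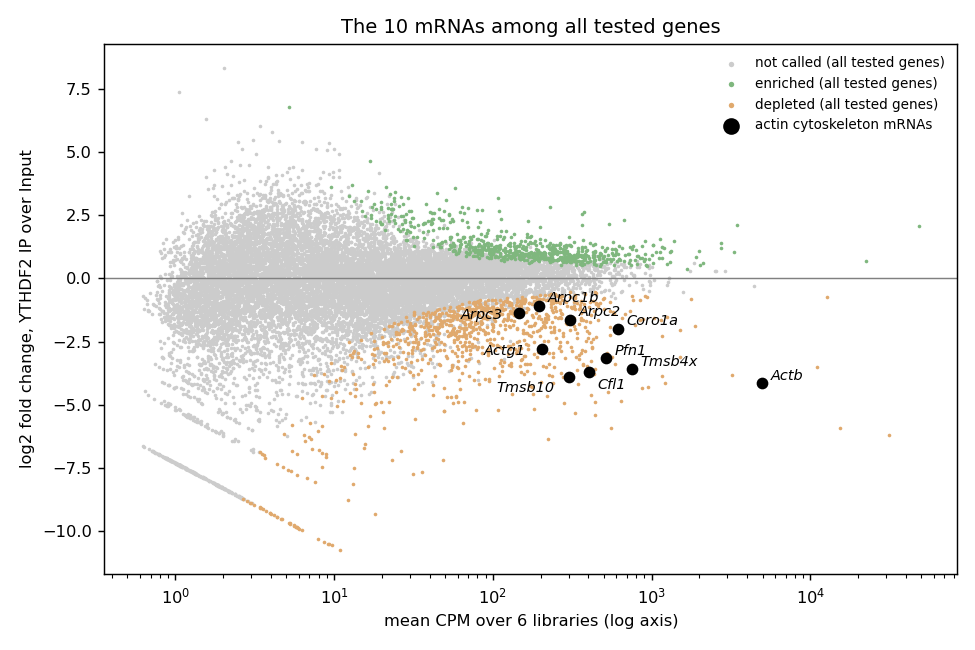
log2 fold change of YTHDF2 IP over Input against the mean CPM over the 6 libraries (log axis) for all 15615 tested genes, coloured by call, with the 10 mRNAs in black. The black points lie between -4.15 and -1.07, below the bulk of genes of the same mean CPM.

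By the distance between centred log2 CPM profiles over the 6 libraries, the gene identifiers most like the median profile of the 10 mRNAs were ENSMUSG00000020077.14 and ENSMUSG00000032011.5, out of 2141 other genes averaging 100 CPM or more. Their distances were 0.281 and 0.373, against 0.289 to 2.36 for the 10 mRNAs themselves. Their log2 fold changes were -2.75 and -3.19. The files give them no names.

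The promoter windows of the 10 genes were read from the RefSeq table (GRCm38.p6), from 250 bases before to 50 bases after an annotated start. The table matched 9 of the 10 genes with 12 windows. Actb, the most depleted of the 10, had no window, so its promoter was not searched. Serum response factor, a known regulator of actin genes, binds the CArG box. A CArG box was found in 1 of the 9 genes, Actg1, with its first base 90 bases before the start, against 1.81% of the 27025 genes in the table. The GC box GGGCGG, or CCGCCC on the other strand, overlapping copies included, was found in all 9 genes, against 38.2% of all genes there. Both shares are over all genes of the table, detected here or not, and no share among genes of similar level was computed. RNA begins at the start site, so only the last 50 bases of a window can be part of the RNA from that start. The windows describe the genes and were not read as what YTHDF2 bound. Shown are Actg1, as the holder of the CArG box, Cfl1, the most depleted mRNA whose gene has a single window (log2 fold change -3.72), and Arpc1b, the least depleted (-1.07). They lie at chr11:120348446-120348745 (minus strand), chr19:5490205-5490504 (plus strand) and chr5:145114006-145114305 (plus strand). Capitals mark CArG and GC boxes; the CArG box of Actg1 is the run of capitals that reads ccatatatgg.
Actg1: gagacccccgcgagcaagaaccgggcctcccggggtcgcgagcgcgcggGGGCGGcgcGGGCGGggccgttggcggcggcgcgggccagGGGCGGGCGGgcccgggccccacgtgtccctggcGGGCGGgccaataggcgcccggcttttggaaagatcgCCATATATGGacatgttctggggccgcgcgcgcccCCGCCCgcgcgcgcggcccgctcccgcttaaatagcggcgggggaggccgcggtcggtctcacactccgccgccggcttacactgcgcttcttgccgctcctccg
Cfl1: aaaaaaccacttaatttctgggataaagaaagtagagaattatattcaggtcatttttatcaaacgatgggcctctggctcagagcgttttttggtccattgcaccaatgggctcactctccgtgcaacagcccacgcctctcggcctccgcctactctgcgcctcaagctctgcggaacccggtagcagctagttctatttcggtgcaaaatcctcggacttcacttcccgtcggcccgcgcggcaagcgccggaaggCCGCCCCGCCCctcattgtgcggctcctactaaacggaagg
Arpc1b: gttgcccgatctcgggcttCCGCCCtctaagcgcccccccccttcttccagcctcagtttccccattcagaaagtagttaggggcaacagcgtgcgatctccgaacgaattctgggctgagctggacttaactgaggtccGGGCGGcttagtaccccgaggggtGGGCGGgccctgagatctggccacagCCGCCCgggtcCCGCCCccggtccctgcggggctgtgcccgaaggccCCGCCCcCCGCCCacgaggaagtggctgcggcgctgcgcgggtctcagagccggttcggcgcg
The window of Cfl1 held 2 GC boxes, that of Actg1 held 6 and that of Arpc1b held 7. These 3 genes were picked for display, and the other windows held 1 to 3 GC boxes, so no relation to depletion is read from the counts.

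The fold changes were recomputed in 16 other settings of scaling, filter, test and libraries. Actb ranged from -4.68 to -3.95 on the log2 scale, Coro1a from -2.52 to -1.79 and Arpc1b from -1.59 to -0.87. In each of these 3 the lowest value came from library sizes that count all reads and the highest from upper quartile scaling.

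**Figure D5:**
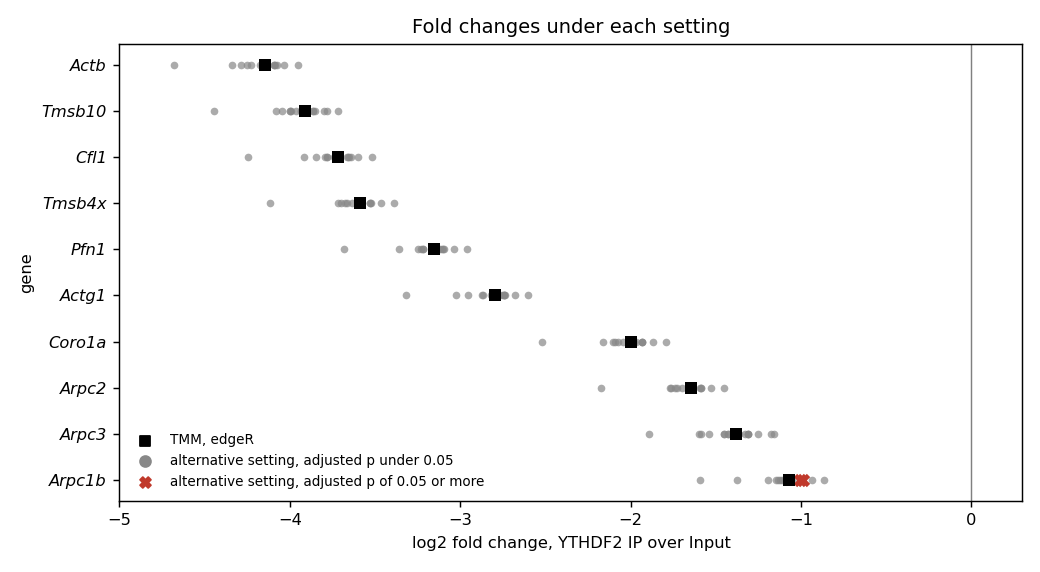
log2 fold change of YTHDF2 IP over Input for each mRNA with TMM scaling in edgeR (black squares) and in 16 other settings (grey circles, or red crosses where the adjusted p was 0.05 or more). All points lie below 0, the only crosses belong to Arpc1b, and the lowest point of each gene is the setting with library sizes from all reads.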

How the data were processed

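RIP-seq libraries of 3 YTHDF2 IPs and 3 Inputs were used. The deposited files hold raw read counts for each Ensembl identifier, with a file for each library. The tools Trimmomatic 0.39, HISAT2 2.1.0, HTSeq and DESeq2 and the build mm10 are named, without roles or order, per the submitters' processing notes. The annotation release, strand setting and duplicate handling are not stated there. The 92 spike-in identifiers (0 to 2 reads per library) and the 5 HTSeq categories were left out of library sizes and tests.

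The main test was edgeR's two-sided quasi-likelihood test (edgeR 4.0.16, R 4.3.3; genes kept by filterByExpr, TMM scaling, robust fit, Benjamini-Hochberg adjustment over all 15615 tested genes). CPM use TMM-scaled library sizes, and SE come from the F statistic. The test was checked on simulated counts, whose mean profile was the same in both groups apart from the changes put in. That check does not cover the differences in make-up between IP and Input libraries. Ratios between members were compared by exact permutation. The text names all 10 members and no other gene by its values, except the 2 identifiers closest in profile. The members and lists were chosen with earlier results of these data known. Replicates of a group differed by at least 16.1 in chi-square per degree of freedom, so none was a repeat deposit. Equal replicate numbers were not taken as pairs. The wider actin list and the marker lists of Treg, melanoma, myeloid, B, CD8 and NK, stromal and muscle cells need names for identifiers and were not used. Alternatives covered scaling, filters, DESeq2 1.42.0, limma 3.58.1, a replicate block and leaving out each library. Files hold no molecular identifiers.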

Additional observations from a re-analysis of the deposited data

How the results depend on the processing

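All 10 mRNAs kept a negative log2 fold change in each of 16 alternatives, and the test against a 1.5-fold change uses the main estimates. None of the 10 was called enriched in any of these 17. The number called depleted was 10 except without YTHDF2 IP replicate 1 or 2, where it was 9 (Arpc1b lost its call), and in the test against a 1.5-fold change, where it was 8, by construction since that test asks for a larger change. The median log2 fold change of the 10 was -2.98 in the main setting, -2.78 under upper quartile scaling, -2.86 under total counts and -3.50 where library sizes counted all reads. In these settings the median of all tested genes moved by 0.20, 0.12 and -0.53, and the median of the 10 relative to it was -2.86 each time. It was -2.38 with limma voom, -2.47 with a replicate block and -2.72 without YTHDF2 IP replicate 1, where the median of all tested genes moved by -0.45, -0.38 and -0.15. Leaving out 1 library gave medians of -3.19 to -2.97. The summed share of the 10, IP over Input, was 0.0680 over all reads, against 0.107, and 0.103 to 0.112 when 1 library was left out. Without the most abundant identifiers, Actb among them, the ratio was 0.171, which is that of the other 9 mRNAs and not of all 10. Leaving out 1 library reversed no ratio between members. The change of the Tmsb10 to Tmsb4x ratio ranged from -0.52 to -0.07 on the log2 scale and that of Arpc3 to Arpc2 from 0.03 to 0.51.

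The calls over all genes, which set the background, moved more. Against 676 enriched and 954 depleted genes, there were 1081 and 801 under upper quartile scaling, 939 and 875 under total counts, 155 and 1924 where library sizes counted all reads, 1030 and 1117 where each library had to reach 1 CPM, 1382 and 2085 with DESeq2, 896 and 1737 with limma voom, 205 and 591 against a 1.5-fold change, and 188 to 999 and 563 to 1661 when 1 library was left out. The cause was not tested. With a replicate block all 10 mRNAs were depleted, with a median log2 fold change of -2.97, and 833 genes were enriched and 1095 depleted. The block left each change of ratio as it was, with sign-flip p-values of 0.25 to 0.50, where 0.25 is the smallest possible. Deviations of equally numbered libraries correlated at 0.086, 0.017 and 0.024 over all tested genes and at 0.39, 0.50 and -0.35 over the 10 mRNAs. The Input is part of an IP lysate, but the labels do not say that equal numbers share one. Each p from 3 against 3 libraries in the permutation tests is bounded at 0.1, so those tests could not reach 0.05. Depth did not limit the 10 mRNAs, whose lowest count in any library was 241 reads.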
